A study of Mus musculus with 6 samples.

Results

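The genes described here encode the enzymes that crosslink collagen and a pair of large matrix glycoproteins, in liver metastases of 4T1 cells with and without silencing of Zdhhc17. They are the 5 lysyl oxidases (Lox, Loxl1, Loxl2, Loxl3 and Loxl4), the 3 lysyl hydroxylases (Plod1, Plod2 and Plod3), tenascin-C (Tnc) and fibronectin (Fn1), chosen by symbol: 10 of the 24167 genes in the count table. All 10 passed the filter on low counts, which left 15567 genes for testing. 4T1 is a mouse triple-negative breast cancer line, here transduced with a lentiviral hairpin and selected with puromycin. The control group carried a scrambled hairpin (shSCR) and the other a hairpin against Zdhhc17 (shZdhhc17), a palmitoyltransferase gene that the study silenced to ask how palmitoylation bears on neutrophil killing of cancer cells. Both groups of female BALB/c mice received 500000 cells by hydrodynamic tail vein injection at 6 to 8 weeks of age, metastases were dissected from the liver on day 10, and polyadenylated RNA was sequenced from 3 libraries per group. Host liver, stromal and immune cells are part of the dissected tissue and carry no hairpin. The labels do not say outright that each library is 1 animal, and p-values therefore speak only to the spread among these 6 libraries, which may be technical.

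Lysyl hydroxylases act inside the cell, where they hydroxylate lysines of newly made collagen chains. Lysyl oxidases act outside it, where they oxidise lysines and hydroxylysines of collagen and elastin to aldehydes that condense into crosslinks. Tenascin-C is scarce in healthy adult liver and appears in wounds and tumour stroma, whereas fibronectin is both a plasma protein secreted by hepatocytes and a matrix protein assembled by fibroblasts and other cells.

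Total counts ran from 15832837 to 19186615 per library, and each of the 10 genes had between 268 counts (Loxl4) and 108737 counts (Fn1) in every library. At 268 counts, counting error alone is 6.11% of the value. The targeted gene, Zdhhc17, stood at 33.7, 32.4 and 34.2 CPM (a count relative to its TMM-normalized library size) in shSCR replicates 1, 2 and 3 and at 25.9, 27.8 and 26.0 CPM in the shZdhhc17 replicates. The groups did not overlap for Zdhhc17, and its log2 fold change was -0.33 ± 0.11 (SE; edgeR adjusted p = 0.383). The library shSCR replicate 3 stood apart, at 54.8 on a first principal component on which the others lay between -28.4 and 9.31. Hepatocyte markers took 2.33% of its counts and 4.19% to 5.30% of the others'. Markers of hepatocytes and of carcinoma epithelium were detected in every library, as the label of liver metastasis implies. Summed levels ran from 20935 to 57682 CPM for the 12 hepatocyte genes and from 1859 to 3367 CPM for the 12 carcinoma genes, with 0 of these values at 0.

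Tnc, Plod2 and Loxl2 were the members whose shZdhhc17 libraries all lay below all shSCR libraries, each by about the same ratio. None of the 10 genes passed the threshold over all genes tested (edgeR's quasi-likelihood test, Benjamini-Hochberg adjusted p under 0.05), and neither did any other gene (0% called). At an unadjusted p under 0.05, the same 3 genes were lower and 0 were higher, where 6.71% of all genes were lower and 4.72% higher. That count was 7 lower without shSCR replicate 1 (11.1% of all genes) and 5 lower with library totals alone (9.92%), and DESeq2 also had Fn1 as higher (unadjusted p = 0.0347). The groups did not overlap for 3 of the 10, all lower, against 9.62% of all genes on the lower and 7.48% on the higher side. Without shSCR replicate 1 the groups did not overlap for 7, all lower (20.2% of all genes lower). Without shSCR replicate 2 they did not for 4 lower and 1 higher, Fn1, against 13.4% and 10.9% of all genes. Without shZdhhc17 replicate 1 the counts were again 4 and 1, against 18.1% and 18.7%. Separate groups stay separate when a library is dropped, so Tnc, Plod2 and Loxl2 were among the lower ones by construction. A share of 1 in 10 on the higher side is no more than that of all genes. Over the 10 genes, 8 had a negative log2 fold change and the median was -0.44, beside a median of 0.0017 over all 15567 genes, of which 7742 were negative. The median of the 10 was -0.17 without shSCR replicate 3 and -0.22 with the mean level of hepatocyte markers as a covariate. limma voom called 0 members and 0% of all genes, and DESeq2 called 1, Tnc (adjusted p = 0.0427), with 1.37% of all genes called. In the authors' deposited table no member had a q-value under 0.05, which 0.844% of its genes had. The q-values there were 0.0614 for Tnc, 0.0669 for Plod2 and 0.0839 for Loxl2.

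**Figure D1:**
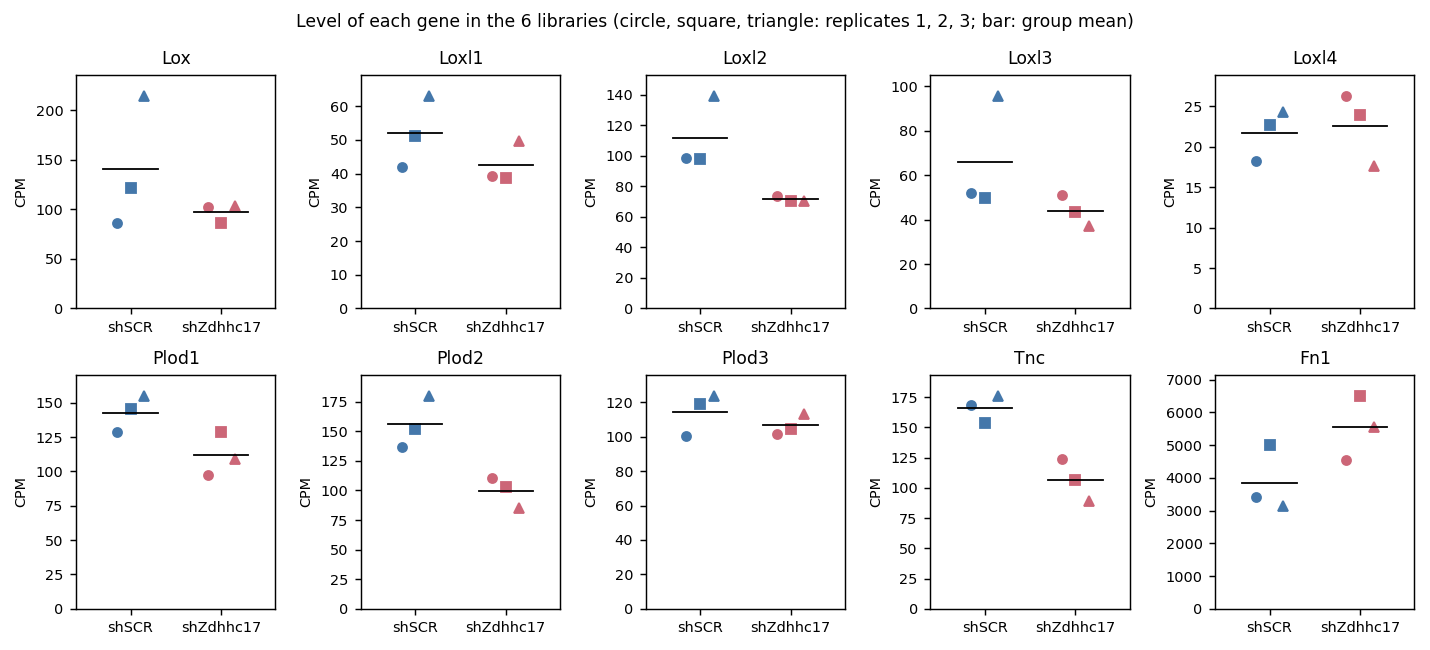
Level of each of the 10 genes in CPM (vertical axis, from 0) in the 3 shSCR and 3 shZdhhc17 libraries; circles, squares and triangles are replicates 1, 2 and 3, and bars are group means. The groups are separate for Loxl2, Plod2 and Tnc, and the shSCR replicate 3 triangle is far above the other libraries for Lox and Loxl3.

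The letters upstream of a start site are shown for members with an available window. These are Tnc, whose groups were separate, Plod1, whose groups met at a single pair, and Loxl4, whose groups shared their range. No window was available for Plod2 or Loxl2, whose groups were also separate, so the Tnc window does not stand for them. Of the 10 genes, 4 matched the RefSeq promoter table (GRCm38.p6), the other being Plod3, whose window is not shown because 208 of its 250 bases lie in exons of Znhit1. Each line gives the 250 bases before the start, 5′ to 3′, on the gene's strand; capitals mark matches, on either strand, to ACGTG or GCGTG (cores of the hypoxia response element), TATAAA (the TATA box), CAGAC (a SMAD-binding core) or GGGCGG (the GC box). The windows are chr4:64047016-64047265, chr4:147936777-147937026 and chr19:42612807-42613056, all on the minus strand.
Tnc: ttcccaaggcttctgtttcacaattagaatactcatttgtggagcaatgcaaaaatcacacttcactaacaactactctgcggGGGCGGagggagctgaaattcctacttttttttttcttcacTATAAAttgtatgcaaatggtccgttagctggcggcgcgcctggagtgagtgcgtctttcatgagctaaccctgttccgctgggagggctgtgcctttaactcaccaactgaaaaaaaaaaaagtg
Plod1: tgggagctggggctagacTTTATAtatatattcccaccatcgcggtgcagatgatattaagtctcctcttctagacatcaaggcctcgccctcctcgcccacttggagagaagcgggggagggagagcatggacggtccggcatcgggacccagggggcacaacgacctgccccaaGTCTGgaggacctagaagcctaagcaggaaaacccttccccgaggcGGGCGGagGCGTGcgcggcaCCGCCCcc
Loxl4: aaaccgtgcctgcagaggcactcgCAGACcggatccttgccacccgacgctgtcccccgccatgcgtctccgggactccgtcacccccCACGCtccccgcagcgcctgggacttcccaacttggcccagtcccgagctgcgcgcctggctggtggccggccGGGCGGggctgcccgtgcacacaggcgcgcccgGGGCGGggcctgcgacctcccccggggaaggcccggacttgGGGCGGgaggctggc
The table holds 2 start sites for Tnc, and the upstream one is shown because 79 bases of the other window lie in a Tnc exon. The window shown held TATAAA 126 bases and GGGCGG 167 bases before the start and no match to the hypoxia or SMAD cores; that of the other site also held 1 CAGAC, 70 bases before its start. Plod1 had 1 GCGTG, 1 CAGAC, 1 TATAAA and 2 GGGCGG matches, and Loxl4 1 GCGTG, 1 CAGAC and 3 GGGCGG matches. The Plod3 window had 1 ACGTG and 3 GCGTG matches, the most of the hypoxia cores among the 4 genes. Among 32851 promoter windows of this length, 16.6% held ACGTG, 28.2% GCGTG, 12.4% TATAAA, 42.2% CAGAC and 32.7% GGGCGG. GC content was 44.8% for Tnc, 61.6% for Plod1 and 76.0% for Loxl4. A match is a description of letters, not of a bound site.

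Among the lysyl oxidases, Loxl2 showed the separation between the groups. Loxl2 encodes an oxidase with scavenger receptor domains that acts on collagen IV of basement membranes and on fibrillar collagen. Loxl2 (ENSMUSG00000034205.17) stood at 98.5, 97.8 and 139 CPM in shSCR replicates 1, 2 and 3 and at 74.0, 70.5 and 70.6 CPM in the shZdhhc17 replicates. The shZdhhc17 libraries were tightly grouped, and 23.8 CPM separated the highest of them from the lowest shSCR library. Group means were 112 ± 23.8 and 71.7 ± 1.96 CPM (SD, n = 3 each). The log2 fold change was -0.64 ± 0.17 (SE; edgeR adjusted p = 0.307), a level 35.9% lower. The exact two-sided permutation test gave p = 0.1, the smallest that 3 against 3 allows.

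Lox, the founding member of the family and a crosslinker of fibrillar collagen and elastin, was uneven among the controls. It stood at 85.7, 122 and 215 CPM in shSCR replicates 1, 2 and 3 and at 103, 85.8 and 104 CPM in the shZdhhc17 replicates. Only shSCR replicates 2 and 3 lay above the shZdhhc17 libraries, and shSCR replicate 1 lay level with the lowest of them. The log2 fold change was -0.53 ± 0.31 (SE; edgeR adjusted p = 0.532). Without shSCR replicate 3 it was -0.09, without shSCR replicate 1 -0.79, and with the mean level of the hepatocyte markers as a covariate -0.12. Lox followed the collagen chain gene Col1a1 across the controls, where Col1a1 stood at 1122, 1653 and 2996 CPM. The ratio of their CPM was 0.0764, 0.0735 and 0.0716 in the shSCR replicates and 0.112, 0.0732 and 0.0968 in the shZdhhc17 replicates. The ratio thus overlapped between the groups (exact two-sided permutation p = 0.3, and 0.675 adjusted over the 9 ratios computed). The ratio of Loxl2 to Col1a1 was 0.0645 ± 0.0212 in shSCR and 0.0689 ± 0.0105 in shZdhhc17 (SD, n = 3 each). That of Plod2 to Col1a1 was 0.0912 ± 0.0309 and 0.0959 ± 0.0216, and both ratios overlapped between the groups.

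Loxl3, an oxidase of the same subfamily as Loxl2, had a similar shape to Lox. It stood at 52.1, 49.6 and 95.8 CPM in shSCR replicates 1, 2 and 3, and at 50.9, 43.7 and 37.3 CPM in the shZdhhc17 replicates. The library shSCR replicate 3 was again the high one, and its log2 fold change, -0.58 ± 0.27 (SE; edgeR adjusted p = 0.462), was -0.21 without it and -0.75 without shSCR replicate 2. In the annotation used for lengths, 11.6% of the exonic bases of Loxl3 also lie in exons of Htra2 on the opposite strand. No source used here states whether the counting used strand, so reads of that stretch cannot be assigned with certainty.

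Loxl1, which is known for its part in elastic fibres, stood between 42.0 and 63.1 CPM in shSCR and between 38.7 and 49.7 CPM in shZdhhc17 metastases. Its log2 fold change was -0.29 ± 0.18 (SE; edgeR adjusted p = 0.556), with -0.13 without shSCR replicate 3 and -0.42 without shSCR replicate 1. Loxl4, another oxidase with scavenger receptor domains, was the least abundant of the 10 genes in CPM. It stood at 18.2, 22.7 and 24.3 CPM in the shSCR replicates and at 26.3, 23.9 and 17.7 CPM in the shZdhhc17 replicates. The groups covered nearly the same range, and the log2 fold change stood at 0.06 ± 0.19 (SE; edgeR adjusted p = 0.92). It was the only oxidase with a positive value, which became -0.08 with library totals alone, -0.05 without shSCR replicate 1 and -0.05 without shZdhhc17 replicate 1.

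Per kilobase of exon, which allows genes to be compared with each other, Lox and Loxl2 were the main oxidase transcripts. In shSCR metastases the levels were 29.4 ± 13.9 CPM per kilobase for Lox, 20.7 ± 4.40 for Loxl2, 15.8 ± 3.21 for Loxl1, 14.3 ± 5.64 for Loxl3 and 5.16 ± 0.748 for Loxl4 (SD, n = 3). Only Loxl4 lay below every other oxidase in each shSCR library; the neighbours in the order above it overlapped. The summed level of the 5 oxidases was 64.6, 75.2 and 116 CPM per kilobase in shSCR replicates 1, 2 and 3 and 64.4, 57.9 and 62.1 in the shZdhhc17 replicates. The shSCR replicate 1 and shZdhhc17 replicate 1 sums were almost equal. Shares of the sum were alike for Lox, with 33.4% ± 5.40 in shSCR and 33.1% ± 1.96 in shZdhhc17 (SD, n = 3 each). The share of Loxl2 was 24.8% ± 3.12 in shSCR and 21.6% ± 0.807 in shZdhhc17 (SD, n = 3 each), with overlapping libraries.

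**Figure D2:**
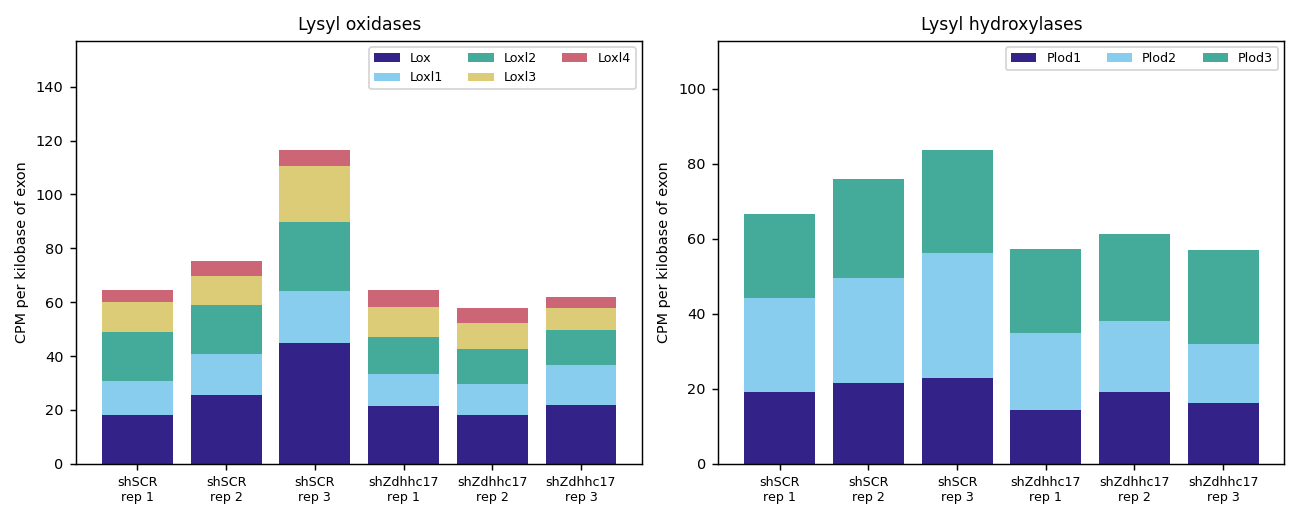
Stacked levels of the 5 lysyl oxidases (left) and the 3 lysyl hydroxylases (right) in each library, in CPM per kilobase of exon, from 0. The oxidase bar of shSCR replicate 3 reaches 116 and the others 57.9 to 75.2; the hydroxylase bars run from 66.5 to 83.6 in shSCR and from 57.0 to 61.3 in shZdhhc17.

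The lysyl hydroxylases differed from each other in how far apart the groups lay: Plod2 was separate, Plod1 nearly so, and Plod3 overlapped. Plod2 encodes the hydroxylase of the collagen telopeptides, the end segments from which the most stable crosslinks form. Plod2 (ENSMUSG00000032374.15) stood at 137, 152 and 180 CPM in shSCR replicates 1, 2 and 3 and at 111, 103 and 85.2 CPM in the shZdhhc17 replicates. The highest shZdhhc17 library lay 26.0 CPM under the lowest shSCR library. Means were 156 ± 21.9 and 99.5 ± 13.0 CPM (SD, n = 3 each), and the log2 fold change stood at -0.65 ± 0.16 (SE; edgeR adjusted p = 0.307), a level 36.2% lower. Leaving out any single library gave values from -0.73 to -0.54.

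Plod1, which hydroxylates lysines of the collagen helix, stood at 129, 145 and 155 CPM in the shSCR replicates and at 97.1, 129 and 109 CPM in the shZdhhc17 replicates. The groups met at a single pair, shSCR replicate 1 and shZdhhc17 replicate 2, and the log2 fold change was -0.35 ± 0.15 (SE; edgeR adjusted p = 0.438). Plod3, whose product also adds sugars to hydroxylysine, stood at 100, 119 and 124 CPM in shSCR and at 102, 105 and 113 CPM in shZdhhc17. The groups shared most of their range, and the log2 fold change was -0.10 ± 0.13 (SE; edgeR adjusted p = 0.791). For Plod3, 11.7% of exonic bases are shared with exons of Znhit1 on the opposite strand.

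Per kilobase of exon, Plod2 was the highest of the 3 hydroxylases in each shSCR library and held 38.3% ± 1.42 of their summed level (SD, n = 3). In the shZdhhc17 libraries its share was 35.7%, 31.1% and 27.7%, and Plod3 was the highest hydroxylase in each, with 40.3% ± 3.25 (SD, n = 3) against 33.6% ± 0.975 in shSCR. The CPM of Plod2 divided by that of Plod3 was 1.36, 1.28 and 1.45 in the shSCR replicates and 1.09, 0.982 and 0.752 in the shZdhhc17 replicates. This ratio did not overlap between the groups (exact two-sided permutation p = 0.1, and 0.45 adjusted over the 9 ratios). Plod2 against Plod1 did overlap, with 1.06, 1.04 and 1.16 in shSCR and 1.14, 0.796 and 0.780 in shZdhhc17.

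The glycoproteins went opposite ways in sign: Tnc was lower in every shZdhhc17 library, while Fn1 had a higher mean. Tnc (ENSMUSG00000028364.16) encodes a hexameric glycoprotein that modulates cell adhesion to fibronectin. It stood at 169, 153 and 176 CPM in shSCR replicates 1, 2 and 3 and at 124, 107 and 89.4 CPM in the shZdhhc17 replicates. The controls were close to each other, and 29.6 CPM separated the groups. Means were 166 ± 11.6 and 107 ± 17.1 CPM (SD, n = 3 each), and the log2 fold change stood at -0.64 ± 0.16 (SE; edgeR adjusted p = 0.307), a level 35.8% lower. Among the 10 genes Tnc had the smallest p, ranking 186 among 15567 genes, followed by Plod2 at 212 and Loxl2 at 251. Its value without a single library ran from -0.75 to -0.52.

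Carcinoma epithelial markers followed Tnc in part. Their mean log2(CPM + 1) over 12 genes was 6.93, 6.58 and 6.85 in shSCR replicates 1, 2 and 3 and 6.87, 6.16 and 6.08 in the shZdhhc17 replicates. The library shZdhhc17 replicate 1, the highest of its group for both Tnc and these markers, lay within the control range for the markers and under it for Tnc. Of the 12 markers, 10 were negative on the log2 scale (median -0.43). At an unadjusted p under 0.05, 3 were lower and 1 higher, where 6.71% of all genes were lower and 4.72% higher. The summed level of the markers ran from 2309 to 3367 CPM in shSCR and from 1859 to 3312 CPM in shZdhhc17. In whole tissue, fewer cells of a type and less RNA per cell cannot be told apart, and the part of these markers in the Tnc difference was not tested.

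Fn1 (ENSMUSG00000026193.16) was by far the most abundant of the 10 transcripts per kilobase, at 330 ± 86.8 CPM per kilobase in shSCR against 21.4 ± 1.49 for Tnc (SD, n = 3 each). It stood at 3421, 5011 and 3124 CPM in shSCR replicates 1, 2 and 3 and at 4552, 6494 and 5562 CPM in the shZdhhc17 replicates. The control replicate 2 lay above shZdhhc17 replicate 1, so the groups overlapped. The log2 fold change was 0.52 ± 0.30 (SE; edgeR adjusted p = 0.526), with 0.39 without shSCR replicate 3 and 0.76 without shSCR replicate 2. The ratio of Tnc to Fn1 in CPM was 0.0493, 0.0306 and 0.0563 in the shSCR replicates and 0.0272, 0.0164 and 0.0161 in the shZdhhc17 replicates, without overlap (exact two-sided permutation p = 0.1, and 0.45 adjusted over the 9 ratios).

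Host markers beside Fn1 gave a mixed picture. Hepatocyte markers, 12 genes, had a mean log2(CPM + 1) of 11.1, 10.7 and 9.79 in shSCR and 10.6, 11.2 and 10.9 in shZdhhc17 replicates 1, 2 and 3, and their order over the libraries differed from that of Fn1. With that mean as a covariate the log2 fold change of Fn1 was 0.40 (edgeR adjusted p = 0.607). The ratio of Fn1 to the hepatocyte gene Alb in CPM was 0.279 ± 0.126 in shSCR and 0.267 ± 0.0266 in shZdhhc17 (SD, n = 3 each). That of Fn1 to Apoa1 was 0.778 ± 0.221 and 0.715 ± 0.147. Both ratios overlapped between the groups (exact two-sided permutation p = 0.9 for Alb and 0.8 for Apoa1). Macrophage markers, 10 genes, stood at 5.98, 6.46 and 5.81 in shSCR and at 6.23, 6.63 and 6.66 in shZdhhc17, an order that matched that of Fn1 except between shZdhhc17 replicates 2 and 3. Their summed level ran from 1044 to 1353 CPM in shSCR and from 1125 to 1396 CPM in shZdhhc17, with 0 values at 0. That sum did not follow the order of Fn1. Of the 10 macrophage markers, 6 were positive and 4 negative on the log2 scale. Endothelial markers, 10 genes, had means of 5.13, 5.16 and 4.94 in shSCR and 5.10, 5.48 and 5.45 in shZdhhc17. Their order also matched that of Fn1, except between shSCR replicate 1 and shZdhhc17 replicate 1. The part of macrophages or of endothelium in the level of Fn1 was not tested.

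**Figure D3:**
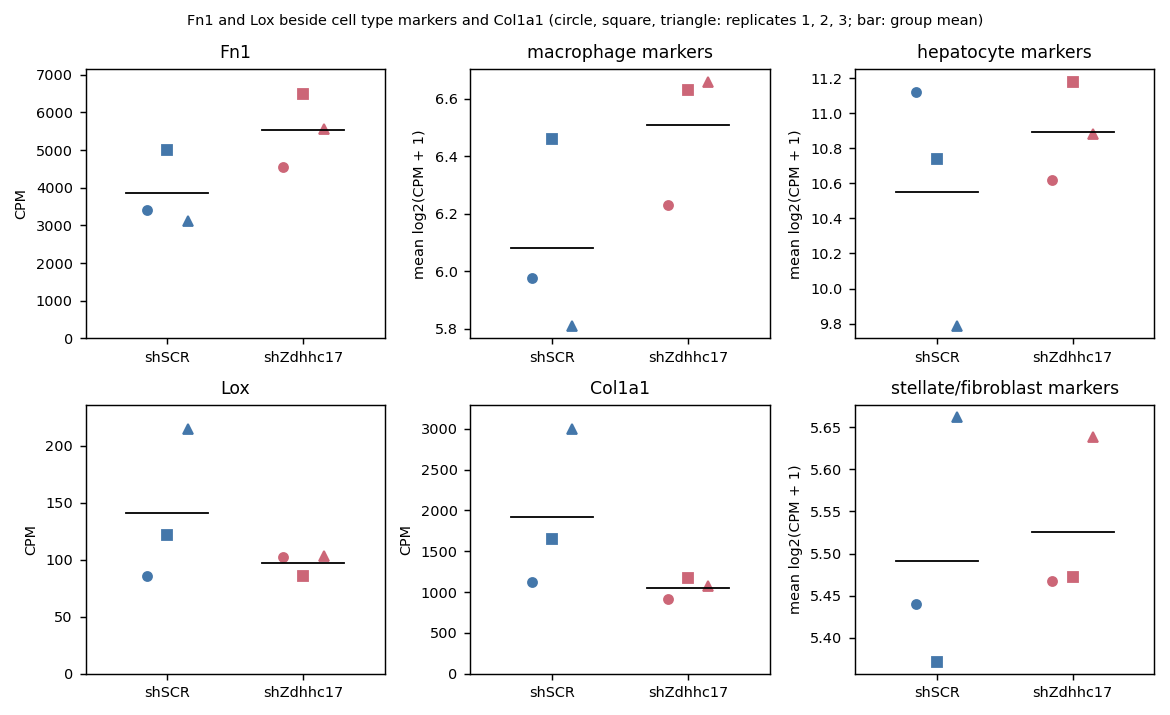
Top row, Fn1 in CPM (from 0) beside the mean log2(CPM + 1) of macrophage and hepatocyte markers; bottom row, Lox and Col1a1 in CPM (from 0) beside stellate cell and fibroblast markers. Points are libraries (circle, square and triangle for replicates 1, 2 and 3) and bars group means; the shSCR replicate 3 triangle is the highest point for Lox and Col1a1 and the lowest for Fn1 and for hepatocyte markers.

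Stellate cell and fibroblast markers, from cells that make much of the liver's collagen, went both ways. Their mean log2(CPM + 1) over 12 genes was 5.44, 5.37 and 5.66 in shSCR and 5.47, 5.47 and 5.64 in shZdhhc17 replicates 1, 2 and 3. The median log2 fold change was 0.05, with 6 genes positive and 6 negative in a range from -1.04 to 0.99, and summed levels ran from 809 to 955 CPM in shSCR and from 919 to 1069 CPM in shZdhhc17. At an unadjusted p under 0.05, 3 were lower and 3 higher, where 6.71% of all genes were lower and 4.72% higher. The groups did not overlap for Fap (-1.04) and Pdgfrb (-0.57), both lower, and for Reln (0.99), higher; these were singled out after their values were seen. Neutrophil markers had a median of 1.99 over 12 genes, 11 of them positive and 9 higher at an unadjusted p under 0.05, with summed levels from 238 to 419 CPM in shSCR and from 529 to 993 CPM in shZdhhc17. The part of either list in the differences of the 10 genes was not tested.

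**Figure D4:**
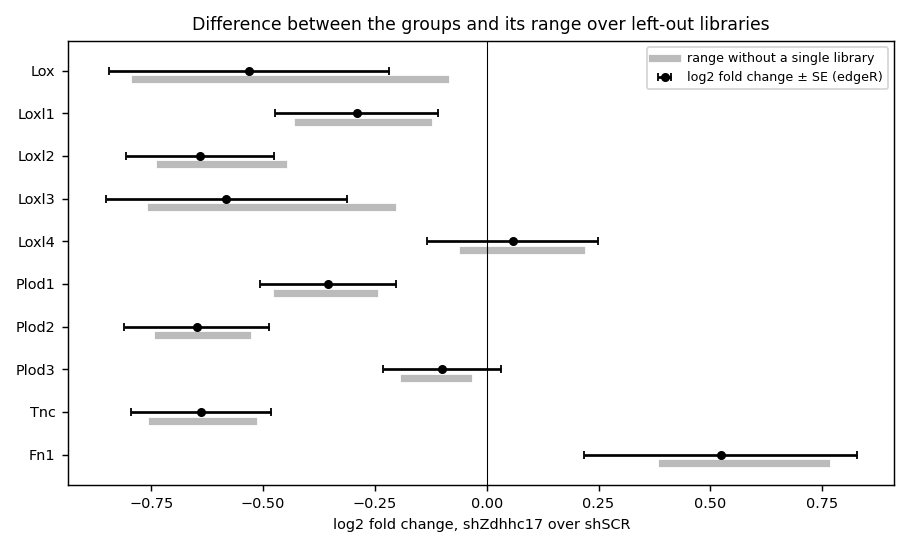
log2 fold change of each gene, shZdhhc17 over shSCR, with its standard error (black) and the range of the value when a single library is left out (grey). All genes but Loxl4 keep to one side of 0 over left-out libraries. For Loxl2, Plod2 and Tnc the values nearest to 0 are -0.46, -0.54 and -0.52, while Lox comes as near as -0.09.

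The other enzymes of collagen maturation showed the same sign as the lysyl hydroxylases in most members. Of 20 listed enzymes and chaperones, 19 were tested; 16 were negative on the log2 scale and the median was -0.28. By edgeR none passed over all genes. At an unadjusted p under 0.05, 4 were lower and 0 higher, and for 6 the groups did not overlap, all lower. Of all genes, 6.71% were lower and 4.72% higher at that p. The groups did not overlap for 9.62% of all genes on the lower and 7.48% on the higher side. The same shares stand beside the counts of the lists that follow. The catalytic subunits of collagen prolyl hydroxylase had the smallest p. P4ha1 stood at 216, 225 and 259 CPM in shSCR and at 136, 147 and 116 CPM in shZdhhc17, or -0.81 ± 0.15 on the log2 scale (SE; edgeR adjusted p = 0.307). P4ha2 stood at 68.6, 73.0 and 72.2 CPM against 41.4, 47.7 and 36.6 CPM, with -0.77 ± 0.13 (SE; edgeR adjusted p = 0.307). Both differences were of the size seen for Plod2 or larger. Their q-values in the authors' deposited table were 0.00281 and 0.00678, under the 0.05 that 0.844% of its genes passed. P3h3, of the prolyl 3-hydroxylase family, had -0.48 ± 0.12, while P4hb, the disulfide isomerase that pairs with the prolyl hydroxylases, had 0.04 ± 0.20 (SE).

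Fibrillar collagens, the substrates of these enzymes, had a median of -0.45 over 11 genes, 10 of them negative. Adjusted over all genes 0 passed; 3 were lower and 1 higher at an unadjusted p under 0.05. Col1a2 stood at 1037, 1271 and 2361 CPM in shSCR and at 765, 927 and 897 CPM in shZdhhc17, which gave -0.85 ± 0.33 on the log2 scale (SE; edgeR adjusted p = 0.409). Its groups did not overlap, and shSCR replicate 3 was again the high library. Col3a1, the most abundant of the list, had -0.49 ± 0.26, and the minor fibrillar chains Col11a2 and Col11a1 had -0.92 ± 0.37 and 1.06 ± 0.38 (SE), both at low levels. The deposited column description names another contrast than the contrast column of the authors' deposited tables, which gives shZdhhc17 against shSCR and is followed here. In the authors' deposited table, the Reactome set for crosslinking of collagen fibrils had a normalized enrichment score of 0.894 over 17 genes (q = 0.876) and the set for collagen formation -1.24 over 83 genes (q = 0.518). The set for collagen biosynthesis and modifying enzymes had -1.10 over 62 genes (q = 0.699).

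Elastic fibre genes went both ways, and matricellular genes were mostly negative. The 16 elastic fibre and fibulin genes had a median of -0.13, with 10 negative, and 2 lower and 2 higher at an unadjusted p under 0.05. The microfibril genes Mfap4 and Mfap5 had -1.59 ± 0.49 and 1.56 ± 0.53 (SE), and Ltbp3, the most abundant, had -0.36 ± 0.23. In the authors' deposited table the q-values were 0.0422 for Mfap4 and 0.113 for Mfap5. Of 10 tenascins and matricellular genes 8 were tested, with a median of -0.18, 7 of them negative and 2 lower at an unadjusted p under 0.05. Postn, which encodes periostin, a partner of tenascin-C in stroma, stood at 118, 102 and 295 CPM in shSCR and at 82.8, 94.4 and 90.3 CPM in shZdhhc17, with -0.95 ± 0.39 (SE; edgeR adjusted p = 0.42). The libraries did not overlap, with shSCR replicate 3 far above the rest. Thbs2, a thrombospondin gene, had -0.42 ± 0.17, and Sparc, which encodes a collagen-binding protein, -0.35 ± 0.25 (SE).

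Receptors of fibronectin and tenascin-C were mostly positive by small amounts. Of 11 integrins and other receptors, 9 had a positive log2 fold change, the median was 0.09, and 0 had an unadjusted p under 0.05 by edgeR in either direction, nor an adjusted one. The smallest p of the list belonged to Itgb6, an epithelial integrin beta chain, with 0.59 ± 0.37 (SE; edgeR adjusted p = 0.559) on only 11 to 25 counts per library. Itgb1, the common beta chain of most fibronectin-binding integrins, had 0.09 ± 0.20, and Tlr4, an innate receptor that tenascin-C activates, 0.21 ± 0.14 (SE).

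Oxygen-response genes were listed because Lox, Loxl2 and Plod2 are known targets of hypoxia-inducible factors. Of 14 genes, 11 were negative, with a median of -0.44. At an unadjusted p under 0.05, 6 were lower and 2 higher, where 6.71% of all genes were lower and 4.72% higher. By edgeR 0 passed over all genes. Vegfa, an angiogenic growth factor gene, stood at 336, 394 and 438 CPM in shSCR and at 191, 249 and 206 CPM in shZdhhc17, or -0.85 ± 0.18 on the log2 scale (SE; edgeR adjusted p = 0.307). Car9, a carbonic anhydrase gene, had -0.87 ± 0.21, while Epas1, which encodes the factor HIF-2 alpha, had 0.59 ± 0.15 (SE; edgeR adjusted p = 0.307 for each). The direction of Epas1 was thus opposite to that of Vegfa and Car9. In the authors' deposited table the q-values were 0.00420 for Vegfa, 0.0425 for Car9 and 0.0567 for Epas1. The 2 higher genes were both factor genes, Epas1 and Hif1a, the latter with 0.35 ± 0.13 (SE). Ldha, the most abundant of the list, had 0.20 ± 0.22 (SE) and was the only other positive gene.

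TGF-beta signalling genes, inducers of matrix production, had a median of -0.04 over 10 genes, 5 negative and 5 positive; 2 were lower at an unadjusted p under 0.05. Those were Tgfb3, a ligand, with -0.55 ± 0.14, and Smad3, a signal transducer, with -0.52 ± 0.13 (SE; edgeR adjusted p = 0.307 for each). Smad2, its close relative, had 0.23 ± 0.12 (SE).

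**Figure D5:**
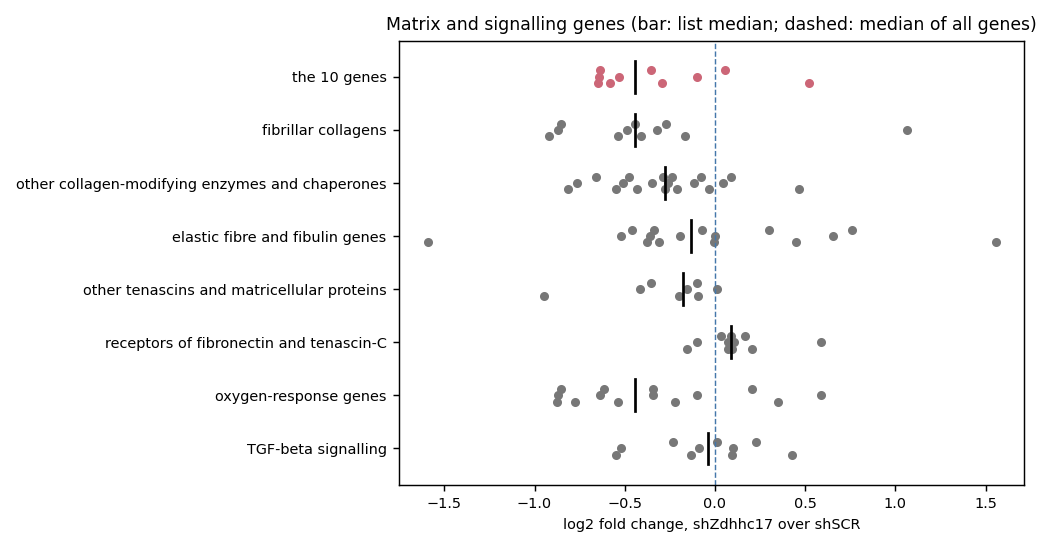
log2 fold change, shZdhhc17 over shSCR, of each tested gene (point) of the 10 genes and of 7 lists, with the list median (bar) and the median of all genes (dashed line). The medians run from -0.45 for fibrillar collagens to 0.09 for receptors of fibronectin and tenascin-C.

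Across the 6 libraries, the transcripts most like Tnc, Loxl2 and Fn1 were sought among 11896 other genes with a mean of at least 5 CPM, as the smallest root mean square distance of centred log2(CPM + 1). For Tnc they were Clk1, Pde7a, Celf4, Kctd11 and Srpx2, at distances of 0.0546 to 0.0854, where the Tnc profile itself had a root mean square of 0.354. The nearest to Loxl2 were Dgka, Exog, Zfp658, Aldoc and Ifi203, at 0.0553 to 0.0763, and to Fn1 they were Flt4, Fam20a, Gm39079, Fgfr2 and Fam120c, at 0.0774 to 0.0981. None of the 10 genes was among the 5 nearest to Tnc, Loxl2 or Fn1. With so many genes and 6 libraries, close profiles arise readily, and the distances are a description.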

How the data were processed

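The authors deposited raw counts per gene for 6 libraries, and a DESeq2 table of log2 fold changes, p-values and q-values; their enrichment table holds normalized enrichment scores, per the file headers. Build GRCm39 and the tools DESeq2 1.34.0, HTSeq, STAR 2.6.1 and FastQC 0.11.8 come from the submitters' processing notes. The kit marks strand, per the labels' protocols.

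The counts were tested with edgeR 4.0.16 (TMM, filterByExpr, glmQLFit with robust estimation, glmQLFTest, two-sided) under R 4.3.3, Benjamini-Hochberg adjusted over 15567 genes with a threshold of 0.05; standard errors come from the fold change and its F statistic. DESeq2 1.42.0 and limma 3.58.1 (voom) were alternatives, as were other scalings and filters, the replicate number as a block, a hepatocyte covariate and leaving out each library. The scripts were tested on simulated data. Exon lengths are merged exons of GENCODE vM21 (GRCm38), another build than that of the counts. Replicates of a group differed by a chi-square of at least 13.6 per gene, where sampling noise gives about 1, so none was counted as a repeat. Of 6 count columns, all were matched to a sample by library name.

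The members, lists and rules were chosen with earlier results of these data known. Named are all 10 genes and Zdhhc17, the nearest profiles, and for each of 7 lists the 3 genes with the smallest p and the most abundant one. Some of the list genes are left out. Col1a1, Alb and Apoa1 are named as ratio partners, after their values were seen. Hif1a was also named after its values were seen. Of 9 marker lists, medians were -1.10 for T cells, 0.38 for endothelium, 0.29 for macrophages, 0.30 for hepatocytes, 2.10 for mesothelium and 1.12 for the 3 tested platelet genes.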

Additional observations from a re-analysis of the deposited data

How the results depend on the processing

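Across 14 alternatives, 9 of the 10 genes kept the sign of their log2 fold change in every one; Loxl4 turned to -0.078 with library totals alone, -0.052 without shSCR replicate 1 and -0.054 without shZdhhc17 replicate 1, with 0.21 as its highest value without a single library (shZdhhc17 replicate 3). Library totals alone moved the median of all genes to -0.13, and unadjusted calls from 735 higher and 1045 lower to 397 and 1544. The count of genes called was 0 in the main analysis, 3 with no filter, 214 with DESeq2, 2 with the hepatocyte covariate and 0 to 1 without a single library (1 without shSCR replicate 3). Members called were 1 with DESeq2, namely Tnc (-0.62, adjusted p = 0.0427; over its alternatives 0.0427 to 0.811), and 0 in each of the others. The median over the members was -0.22 with the hepatocyte covariate, -0.59 with library totals alone, and ran over left-out libraries from -0.52 (without shSCR replicate 1) to -0.17 (without shSCR replicate 3). Members lower at an unadjusted p under 0.05 numbered 3 to 7 over the alternatives, where 3.61% to 11.1% of all genes were lower. The 7 and the 11.1% both belong to the fit without shSCR replicate 1. In a check added after seeing the data, members without overlap numbered 3 to 7 without a single library, against 3 with all: 7 lower without shSCR replicate 1 (20.2% of all genes), 5 without shSCR replicate 2 (4 lower, 1 higher, Fn1; all genes 13.4% and 10.9%) and 5 without shZdhhc17 replicate 1 (4 lower, 1 higher, Fn1; all genes 18.1% and 18.7%). Groups that are separate with all libraries stay separate when a library is dropped, so Loxl2, Plod2 and Tnc were among them by construction. Replicate numbers are shared by name only: deviations of same-numbered libraries correlated at -0.0591, 0.315 and -0.0458. With the replicate block, 0 genes were called, the median over the members was -0.40 and Tnc had -0.65 (edgeR adjusted p = 0.458). With a pseudocount of 0.25 the differences of single members kept their sign. The number of libraries limits precision more than depth does: in 19 of 20 pairs of a member and a group, the spread between libraries exceeded the counting error.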
